A study of Mus musculus with 6 samples.

Results

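The genes described here encode kinases and phosphatases known to act on tau. They are 10 named genes of 53640 gene symbols shared by the 6 libraries. Gsk3a and Gsk3b encode glycogen synthase kinase 3. Cdk5 and Cdk5r1 encode cyclin-dependent kinase 5 and p35, an activator of that kinase, which has little activity alone. Mark1, Mark2 and Mark4 encode microtubule affinity-regulating kinases, and Dyrk1a a dual-specificity kinase. Fyn encodes a Src family tyrosine kinase, and Ppp2ca the alpha catalytic subunit of protein phosphatase 2A (PP2A). All 10 were found in every table and all 10 passed the filter on low counts, which left 20694 genes to test. The rule that chose them uses what their products do.

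Tau is a neuronal protein that binds and stabilises microtubules, and its binding weakens as it is phosphorylated. The GSK3 kinases and CDK5 phosphorylate serines and threonines that precede a proline, and DYRK1A can prime tau for GSK3. The MARK kinases phosphorylate the microtubule-binding repeats, FYN phosphorylates a tyrosine near the amino terminus, and PP2A is the main tau phosphatase of the brain. In Alzheimer disease and related tauopathies, hyperphosphorylated tau detaches from microtubules and collects in tangles. Much of the control of these enzymes acts on the proteins, by phosphorylation, partner binding or cleavage, which RNA counts do not show.

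RNA was sequenced from tissue that the labels call PFC (total lysate, so all cell types together) of mice aged 6 months, with 2 libraries, named as biological duplicates, in each of 3 groups. Control mice had a C57BL/6 x C3H background and received vehicle. Tau mice were labelled PS19(P301S) and also received vehicle; in this line the prion promoter drives mutant human tau. Treated tau mice were the same line dosed with WDR5-0103, an antagonist of WDR5, which is part of the H3K4 methyltransferase complexes; dose and duration were not used here.

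Total gene counts lay between 17690811 and 34774643 per library, and the members had between 647 counts (Mark4 in tau 2) and 14062 counts (Ppp2ca in treated tau 1). Prnp, whose promoter drives the transgene, stood at 1654 CPM (TMM-scaled CPM, the count as a share of its library on a common scale) in the library labelled control 1, inside the range of the PS19 libraries (1472 to 1876 CPM) and against its label, while control 2 had 876 CPM. By Xist and Ddx3y, the library labelled control 1 and both treated tau libraries came from males, and control 2 and both tau libraries from females, so the effects of sex and of treatment cannot be told apart between treated tau and tau. The treated tau tables also list a different set of symbols (54134 against 54429), so treatment and whatever set the tables apart cannot be told apart either. Excitatory cortical neuron markers were present in every library (9 of 9 tested, summed level 1623 to 1920.1 CPM). The 5 tested olfactory bulb markers summed to 187 CPM in the library labelled control 1 and to 15.8 to 20.1 CPM elsewhere. The 10 oligodendrocyte markers summed to 5799.6 CPM in tau 2 and 1532 to 3096 CPM elsewhere, and the 10 striatal markers to 400.5 CPM in tau 2 and 179 to 239 CPM elsewhere.

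Compared per length of exon, the 10 genes spanned less than a factor of 10 in level. Cdk5r1 was highest, at 77.5 ± 5.88 CPM per kb (SD over the 6 libraries), followed by Ppp2ca at 55.2 ± 3.35 and Cdk5, the kinase that the Cdk5r1 product activates, at 38.5 ± 1.41 CPM per kb. Those 3 did not overlap with each other or with any other member in any library. Next stood Gsk3b (27.3 ± 2.44 CPM per kb), Mark1 (27.1 ± 2.33), Gsk3a (23.7 ± 1.26) and Fyn (23.3 ± 2.11), whose library values overlapped, so their order is not resolved. Dyrk1a followed at 17.5 ± 0.857 CPM per kb, apart from its neighbours on both sides. Mark2 (9.62 ± 0.746) and Mark4 (9.14 ± 1.20 CPM per kb) were lowest and overlapped with each other. Mark4 still lay above 73.7% of the tested genes that could be given a length, and Cdk5r1 above 97.7%. The length is that of all annotated exons merged, so a gene whose long forms are little used reads too low on this scale.

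**Figure D1:**
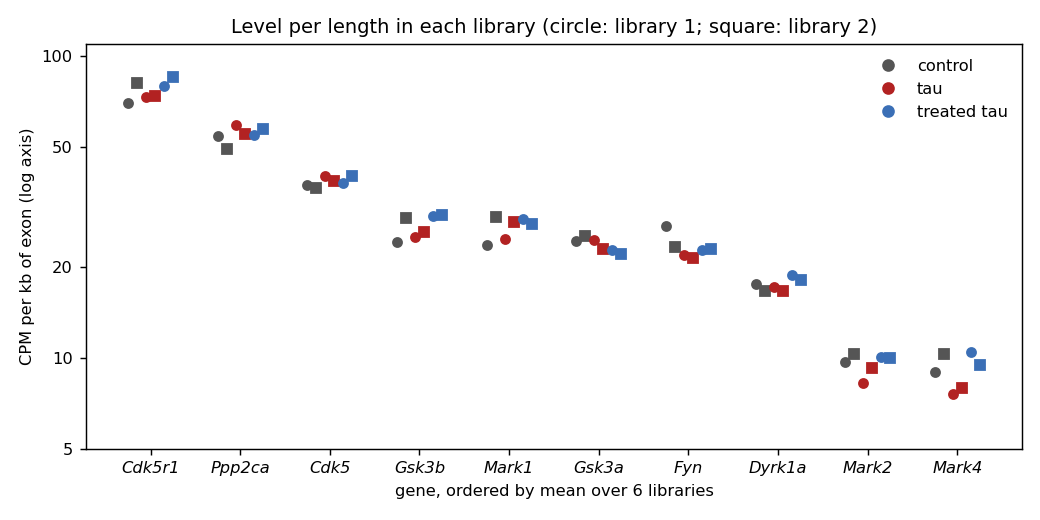
CPM per kb of merged exon (log axis) of each gene in each library, ordered by the mean over the 6 libraries; colours give the group and symbols the library number. Cdk5r1 (70.0 to 85.5 CPM per kb) lies highest, Mark2 and Mark4 (7.58 to 10.5) lowest.

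None of the 10 genes differed between any of the 3 groups at an adjusted p under 0.05 in the quasi-likelihood test of edgeR. In tau against control, edgeR called 0 of the 20694 genes tested (0%), 2059 had an unadjusted p under 0.05, and DESeq2 called 51. In treated tau against tau 3.76% of genes were called (3.09% higher and 0.677% lower), and in treated tau against control 4.22% (3.32% higher and 0.899% lower). Among 14739 protein-coding genes, the class of all 10 members, fitted alone, the counts were 45 (23 higher and 22 lower) and 40 (24 higher and 16 lower), and with a sex term over all genes they were 166 and 762. The sex term rests on the 2 control libraries alone. These also differ in olfactory bulb markers (187 against 19.2 CPM) and in Prnp (1654 against 876 CPM), so values with this term are not adjusted for sex alone. At an unadjusted p under 0.05 there were 2 members in tau against control, both lower (9.95% of all genes; 4.31% higher and 5.64% lower). In treated tau against tau there were 2, both higher (12% of all genes; 7.52% higher and 4.44% lower), and in treated tau against control 0 (16.3% of all genes; 8.17% higher and 8.09% lower). DESeq2 and limma-voom called none of the 10 either, in any comparison. Groups of 2 libraries often fail to overlap: 41.6% of all genes did so in tau against control, 41.3% in treated tau against tau and 46.3% in treated tau against control. The higher direction held 20.3%, 21.2% and 23% in turn, and the lower 21.3%, 20.1% and 23.3%. For the members the counts were 5 of 10 (2 higher and 3 lower), 7 of 10 (6 higher and 1 lower) and 6 of 10 (4 higher and 2 lower). The median log2 fold change of the 10 was -0.05 in tau against control, 0.11 in treated tau against tau and 0.09 in treated tau against control, where the medians over all genes were -0.003, -0.006 and -0.007. The tau libraries enter both of the first 2 comparisons, so a level that is low in tau gives opposite signs in them. In bulk tissue, fewer cells of a type and less RNA per cell cannot be told apart.

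**Figure D2:**
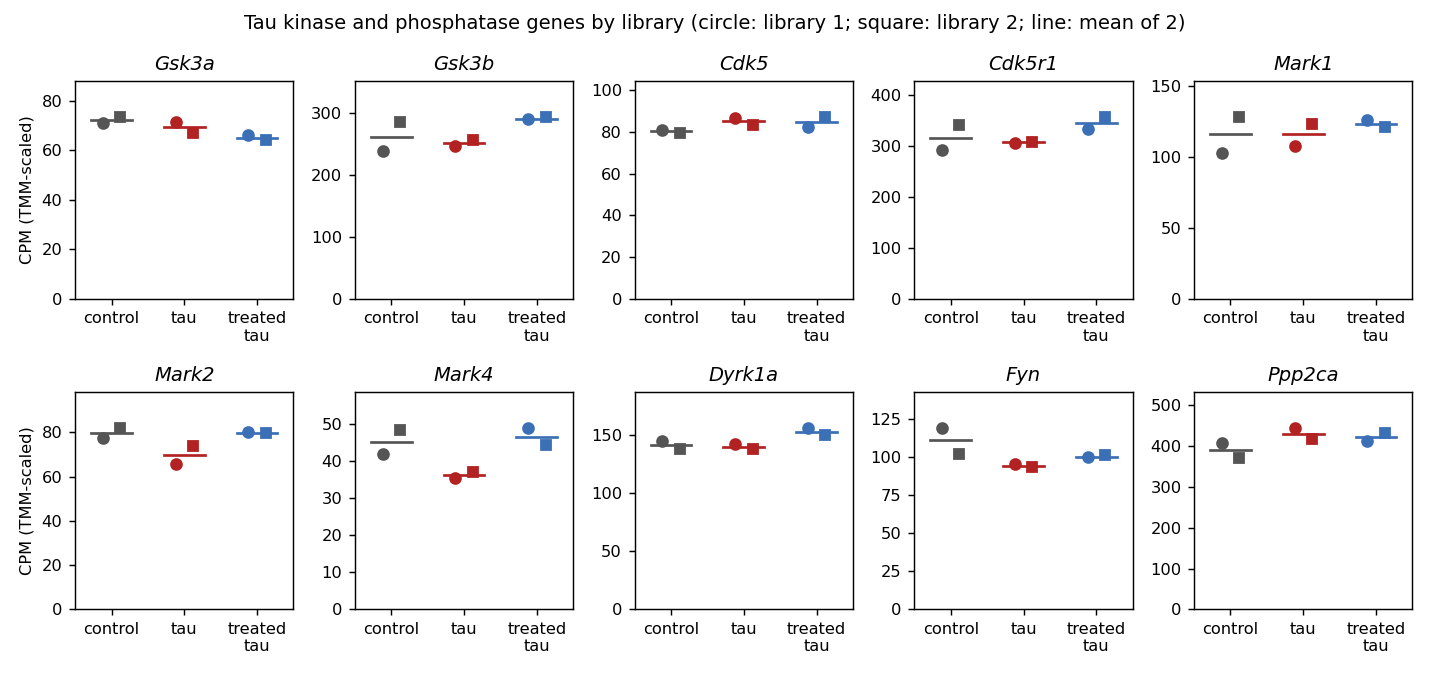
CPM of each gene in each library by group, with a line at the mean of the 2 libraries (each vertical axis starts at 0). Mark4 in tau (35.4 and 37.1 CPM) lies below all 4 other libraries, and the 2 control libraries of Gsk3b lie at 238 and 286 CPM.

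The MARK kinases release tau from microtubules by phosphorylating its repeat domain, and Mark4 was the member with the widest spread of group means. Mark4 (chromosome 7, 19424775 to 19458821, minus strand, mm10) had 42.0 CPM in the library labelled control 1, 48.3 in the other control, 35.4 and 37.1 CPM in the tau pair, then 48.9 and 44.2 CPM in the treated pair. Both tau libraries lay below the other 4, and the control and treated tau libraries overlapped. Counting error alone gave tau 2, the library with the fewest counts, a 95% Poisson interval of 34.3 to 40.1 CPM. The library labelled control 1 had one of 39.5 to 44.6 CPM, so the 2 intervals overlapped at their edges. Whether counting error separates these libraries was not tested. In tau the level was 0.802 times that of control (95% interval 0.676 to 0.951; log2 fold change -0.32 ± 0.11, SE), with an unadjusted p of 0.0163 and an edgeR adjusted p of 0.445. That log2 value was -0.22 without control 2, -0.28 without tau 1, -0.35 without tau 2 and -0.41 without the library labelled control 1. In treated tau the level was 1.29 times that of tau (1.09 to 1.53; log2 0.37 ± 0.11), unadjusted p 0.00763 and edgeR adjusted p 0.14. With a term for sex, which rests on the 2 control libraries alone, the log2 value for treated tau against tau was 0.56 (edgeR adjusted p 0.219, in a range of 0.094 to 0.529 over the alternatives). Treated tau against control gave 1.03 times (0.876 to 1.22). Mark4 in the library labelled control 1 and the tau pair lay below control 2 and the treated pair. The summed excitatory cortical neuron markers had the same order, and their part was not tested.

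Mark2, which also acts in neuronal polarity (chromosome 19, 7275396 to 7341860, minus strand), had 77.3 CPM in the library labelled control 1, 82.0 in the other control, 65.8 and 73.7 CPM in the tau pair, then 80.1 and 79.6 CPM in the treated pair. Tau was again the lowest group without overlap, at 0.874 times control (0.759 to 1.01), and treated tau stood at 1.15 times tau (0.996 to 1.32), with edgeR adjusted p of 0.509 and 0.436. However, tau 2 (95% Poisson interval 69.7 to 77.8 CPM) overlapped in counting error with the library labelled control 1 (73.9 to 80.8 CPM). It also overlapped with the treated pair (77.1 to 83.1 and 76.2 to 83 CPM). As for Mark4, the library labelled control 1 and the tau pair lay below control 2 and the treated pair. The Mark2 log2 fold change of -0.19 for tau against control was -0.11 without tau 1, and that of 0.20 for treated tau against tau was 0.12 without that library. Mark1 (chromosome 1, 184896789 to 184999570, minus strand) did not share this order. It had 103 CPM in the library labelled control 1, 128 in the other control, 108 and 123 in the tau pair, then 126 and 121 in the treated pair, so the 3 groups overlapped. Its fold was 0.999 for tau against control (95% interval 0.838 to 1.19). Mark3, the remaining family member and no member of the list, had 115 and 109.8 CPM in control, 103 and 109 in the tau pair, then 112 and 114 in the treated pair. Within a library, Mark4 made up 16.6% and 16.8% of the MARK family's CPM per kb in control, 14.8% and 14.0% in the tau pair, then 17.2% and 16.0% in the treated pair; this share was formed after the values were seen and carries no test.

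Over the 6 libraries Mark4 and Mark2 were the most alike pair that includes Mark4 (Pearson r of log2 CPM 0.91). Among 8687 genes of comparable or higher level (average log2 CPM of at least 4), Ptgfrn, an immunoglobulin-family membrane protein (r = 0.989), Plec, the cytoskeletal linker plectin (0.986), and Rexo1, an exonuclease-family gene (0.982), followed Mark4 most closely. Plec had 296 and 347 CPM in control, 227 and 234 in the tau pair, then 340.1 and 319 in the treated pair. These values are descriptions over 6 libraries that share their groups, and 55 of the genes compared reached an r above 0.95.

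The 2 GSK3 genes encode closely related kinases that can be inhibited by phosphorylation of an amino-terminal serine, and GSK3 beta is among the most studied tau kinases. Gsk3b (chromosome 16, 38089001 to 38246084, plus strand) had 238 CPM in the library labelled control 1, 286 in the other control, 247 and 257 in the tau pair, then 290.0 and 293 in the treated pair. Both treated tau libraries lay above the other 4, but control 2 (95% Poisson interval 279.8 to 293 CPM) overlapped with both in counting error. Treated tau stood at 1.16 times tau (95% interval 1.00 to 1.33; log2 fold change 0.21 ± 0.09, SE; unadjusted p 0.0464, edgeR adjusted p 0.405). Against control it stood at 1.11 times (0.963 to 1.28; edgeR adjusted p 0.468), and tau stood at 0.96 times control (0.832 to 1.11). With the sex term, the log2 value for treated tau against tau was 0.47 (edgeR adjusted p 0.12). That term rests on the 2 control libraries alone and carries whatever sets them apart. Without control 2 the value of Gsk3b for tau against control changed sign, to 0.08. The summed excitatory cortical neuron markers were likewise lowest in the library labelled control 1 and tau and higher in control 2 and treated tau, with sums of 1623, 1737 and 1683 CPM against 1909, 1920.1 and 1896 CPM. Slc17a7 (891 to 1005 CPM) was the largest part of the sum, and not every marker followed it. Foxp2 had 22.8 CPM in control 2 and 35.1 in tau 2, and Fezf2 had 28.8 in control 2 and 38.2 in tau 1. Cdk5r1, Mark4 and Mark2 split the libraries in the same way as Gsk3b, and so did Cdk5r2 and Ttbk1, which are no members. The part of these markers in the values of any of these genes was not tested. Against control, the treated tau log2 value of Gsk3b, 0.15, was 0.03 without the library labelled control 1 and 0.29 without control 2.

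Gsk3a (chromosome 7, 25228258 to 25237851, minus strand) had 71.2 CPM in the library labelled control 1, 73.3 in the other control, 71.6 and 66.8 in the tau pair, then 66.1 and 64.2 in the treated pair. The treated tau libraries were the lowest of the 6, at 0.94 times tau (0.823 to 1.07) and 0.902 times control (0.79 to 1.03), with edgeR adjusted p of 0.798 and 0.438. An antisense gene, 9130221H12Rik, covers 28.28% of the exon length of Gsk3a, and the strand setting of the counting is not given in the sources used here; that gene had 1.88 to 2.61 CPM. Of the 50-base stretches of Gsk3a, 25.7% also occur in another annotated gene, so its level is uncertain by an amount these files do not give. Within a library, Gsk3b relative to Gsk3a, both per kb, was 0.988 in the library labelled control 1, 1.15 in the other control, 1.02 and 1.13 in the tau pair, then 1.29 and 1.34 in the treated pair. The ratio does not depend on library scaling; it was formed after the values were seen and carries no test.

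Promoter sequence is shown for the GSK3 pair and for Mark2, genes picked after the values were seen. The drug's target complexes methylate histone H3 at promoters, where that mark is typical of CG-rich sequence. Whether promoter sequence bears on any level given here was not tested. Each stretch is the 250 bases that end at the base before the RefSeq start (assembly GRCm38.p6, the same build as mm10), read 5′ to 3′ on the gene's strand, with the dinucleotide CG in capitals. They lie at chr7:25237852-25238101 (Gsk3a, minus), chr16:38088751-38089000 (Gsk3b, plus) and chr19:7341861-7342110 (Mark2, minus, its upstream start).
Gsk3a: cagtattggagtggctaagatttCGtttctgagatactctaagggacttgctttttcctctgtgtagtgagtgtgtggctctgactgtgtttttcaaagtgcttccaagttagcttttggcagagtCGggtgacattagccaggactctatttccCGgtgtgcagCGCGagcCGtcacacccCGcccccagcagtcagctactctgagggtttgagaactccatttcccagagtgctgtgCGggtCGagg
Gsk3b: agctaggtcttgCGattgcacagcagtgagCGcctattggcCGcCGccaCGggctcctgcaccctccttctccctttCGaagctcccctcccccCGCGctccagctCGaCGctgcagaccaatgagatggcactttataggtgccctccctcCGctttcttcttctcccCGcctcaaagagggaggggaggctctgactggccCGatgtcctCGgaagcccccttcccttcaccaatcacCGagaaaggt
Mark2: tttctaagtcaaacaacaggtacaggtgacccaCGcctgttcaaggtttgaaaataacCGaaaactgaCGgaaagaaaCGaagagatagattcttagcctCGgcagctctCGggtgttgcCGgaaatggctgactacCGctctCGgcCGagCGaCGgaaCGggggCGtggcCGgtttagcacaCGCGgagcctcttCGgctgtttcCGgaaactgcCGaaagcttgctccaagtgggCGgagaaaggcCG
The stretch holds 9 CG in Gsk3a, 15 in Gsk3b and 22 in Mark2, where the median over 32851 such stretches was 6, and 40.3%, 27.3% and 14.8% of all stretches held at least as many. At the downstream start of Mark2, not shown, the stretch held 6 CG, and 50.4% of all stretches held at least as many. Motifs were searched on both strands, and the GC box GGGCGG itself contains a CG. It occurred 1 time in Gsk3a and in Mark2 and not in Gsk3b (32.7% of all stretches hold it). The letters CCAAT occurred 3 times in Gsk3b and 1 time in Gsk3a (33.8%), and TATAAA 1 time in Gsk3b and in neither other gene (12.4%). Of the 10 genes 7 had an entry, with 11 starts in all. Cdk5, Cdk5r1 and Mark4 had none. Over those starts the stretch held from 2 CG (the most downstream start of Dyrk1a) to 52 (a start of Mark1, matched by 0.0487% of all stretches). No measurement of the histone mark or of binding enters these counts.

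CDK5 is active in neurons through p35, the product of Cdk5r1, or through p39, that of Cdk5r2, and calpain cleavage of p35 to p25 prolongs its activity. Cdk5 (chromosome 5, 24418241 to 24423530, minus strand) had the smallest spread relative to its mean. Its levels were 81.1 CPM in the library labelled control 1, 79.5 in the other control, 86.7 and 83.5 in the tau pair, then 82.4 and 87.1 in the treated pair. Both PS19 groups lay above control, at 1.06 times each (95% intervals 0.933 to 1.21 for tau and 0.93 to 1.20 for treated tau), and did not differ from each other beyond their spread (0.995 times, 0.876 to 1.13). However, the library labelled control 1 (95% Poisson interval 77.6 to 84.7 CPM) overlapped in counting error with every PS19 library, such as treated tau 1 (79.4 to 85.5 CPM). Cdk5r1 (chromosome 11, 80477023 to 80481184, plus strand, a single exon) had 291 CPM in the library labelled control 1, 340.1 in the other control, 306 and 308 in the tau pair, then 333 and 356 in the treated pair. Treated tau lay above tau without overlap (1.12 times, 0.979 to 1.28; log2 0.17; edgeR adjusted p 0.531) and overlapped with control. With the sex term that log2 value was 0.39, and for tau against control the value of -0.04 turned to 0.08 without control 2. Treated tau against control (log2 0.13) gave 0.02 without the library labelled control 1 and 0.25 without control 2. Per kb, Cdk5r1 exceeded Cdk5 by a factor of 1.84 to 2.23 in the 6 libraries. Cdk5r1 and Gsk3b were the most alike pair of members (Pearson r of log2 CPM 0.96 over 6 libraries); Cdk5 and Ppp2ca had an r of 0.91.

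Cdk5r2, a listed regulator and no member, came nearest to a call among all genes of the pathway lists. It had 51.9 CPM in the library labelled control 1, 65.5 in the other control, 42.9 and 44.7 in the tau pair, then 59.8 and 63.1 in the treated pair. Both tau libraries were below the other 4. The library labelled control 1 was in turn below control 2 and the treated pair. The summed excitatory cortical neuron markers also split the libraries this way, and their part was not tested. Treated tau stood at 1.40 times tau (95% interval 1.17 to 1.69; log2 0.49 ± 0.12, SE; edgeR adjusted p 0.0578), and tau at 0.745 times control (0.619 to 0.897; edgeR adjusted p 0.441). The first value passed the threshold in 6 of 16 alternative analyses, among them DESeq2 (adjusted p 0.0107) and edgeR without the library labelled control 1 (0.0162), without control 2 (0.0167) or with a replicate block (0.0434), in a range of 0.0104 to 0.342, and its log2 value was 0.83 with the sex term. The second was -0.25 on the log2 scale without control 2 and passed in 1 alternative, without the library labelled control 1 and tau 2 together (0.04). Relative to Cdk5r1, per kb, Cdk5r2 stood at 0.265 and 0.287 in control, 0.208 and 0.216 in the tau pair, then 0.267 and 0.263 in the treated pair.

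DYRK1A is encoded on the mouse counterpart of the Down syndrome region and phosphorylates tau and the priming site for GSK3. Dyrk1a (chromosome 16, 94570010 to 94695517, plus strand) had 145 CPM in the library labelled control 1, 138 in the other control, 142 and 138 in the tau pair, then 156 and 149.8 in the treated pair. The treated tau libraries were above the other 4. However, treated tau 2 (95% Poisson interval 145 to 154 CPM) overlapped in counting error with the library labelled control 1 (141 to 150 CPM) and tau 1 (137 to 147 CPM). Treated tau stood at 1.09 times tau (95% interval 0.969 to 1.23; log2 0.13) and 1.08 times control (0.96 to 1.22). EdgeR adjusted p was 0.61 and 0.524. Tau and control overlapped (0.989 times, 0.878 to 1.11). With the sex term the log2 value for treated tau against tau was 0.05.

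FYN carries tau-dependent signals at the postsynaptic membrane and also acts in oligodendrocytes during myelination. Fyn (chromosome 10, 39368855 to 39565381, plus strand) had 119 CPM in the library labelled control 1, 102 in the other control, 95.6 and 93.2 in the tau pair, then 100.1 and 101 in the treated pair. The 2 control libraries were the highest and the 2 tau libraries the lowest, but control 2 (95% Poisson interval 98.3 to 106 CPM) overlapped in counting error with both treated tau libraries (96.8 to 104 CPM each), as these did with tau 1 (91.8 to 99.4 CPM). Tau stood at 0.853 times control (95% interval 0.738 to 0.985; log2 fold change -0.23 ± 0.09, SE; unadjusted p 0.0338, edgeR adjusted p 0.471). Without the library labelled control 1 the log2 value was -0.11, and without control 2 it was -0.34 (edgeR adjusted p 0.696 and 0.306, in a range of 0.306 to 0.819). Treated tau stood at 1.06 times tau (0.92 to 1.23) and 0.906 times control (0.785 to 1.04), and the log2 value against tau of 0.09 turned to -0.14 with the sex term. Against control the log2 value of -0.14 was -0.02 without the library labelled control 1. That library, the highest for Fyn, was the one with olfactory bulb markers at 187 CPM. Tau 2, with the most oligodendrocyte marker RNA, had the lowest Fyn. The part of either marker set in these values was not tested.

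PP2A removes phosphate from tau, and its catalytic subunit works in complexes with a scaffold and a regulatory subunit. Ppp2ca (chromosome 11, 52098681 to 52127778, plus strand) had 408 CPM in the library labelled control 1, 370.5 in the other control, 444 and 416 in the tau pair, then 411 and 431 in the treated pair. Every PS19 library lay above both control libraries. However, the library labelled control 1 (95% Poisson interval 401 to 416 CPM) overlapped in counting error with tau 2 (406 to 426 CPM) and treated tau 1 (404 to 418 CPM). Tau stood at 1.10 times control (95% interval 0.98 to 1.25; log2 0.14 ± 0.08, SE; edgeR adjusted p 0.547) and treated tau at 1.08 times (0.958 to 1.22; edgeR adjusted p 0.526), while treated tau and tau overlapped (0.978 times, 0.867 to 1.10). The first log2 value was 0.22 without the library labelled control 1 and 0.075 without control 2, and the second, 0.11, was 0.19 and 0.05. Of the 50-base stretches of Ppp2ca, 41.0% occur in another annotated gene, most of them in 9430098F02Rik, which lies on the opposite strand over 39.85% of its exon length and was listed at 0 counts in every library. Its level is therefore uncertain. For the other members apart from Gsk3a (25.7%) the share was at most 0.367%. Ppp2cb, the beta catalytic subunit, had 91.0 and 79.3 CPM in control, 93.9 and 83.7 in the tau pair, then 81.3 and 82.3 in the treated pair, and the Ppp2ca share of both, per kb, ran from 46.8% to 50.7%.

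**Figure D3:**
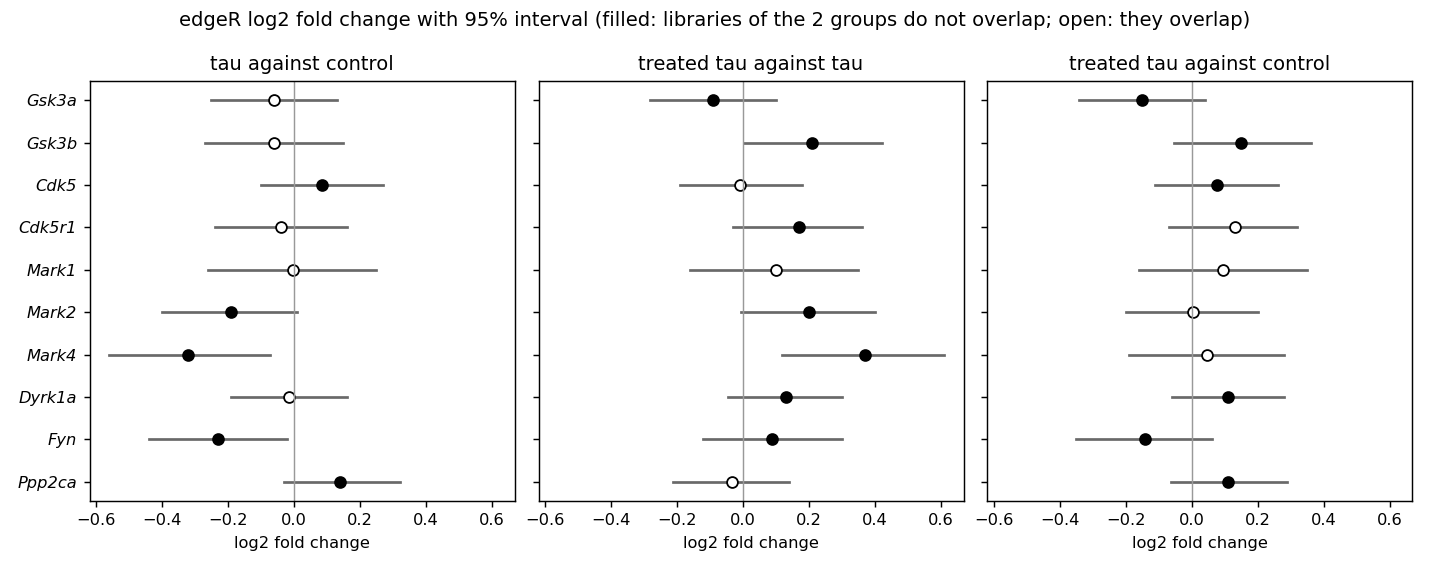
Log2 fold change of each gene with its 95% interval in the 3 comparisons (edgeR); filled points mark groups whose libraries do not overlap. The intervals of Mark4 and Fyn in tau against control and of Mark4 and Gsk3b in treated tau against tau leave out 0 before adjustment for 20694 genes, and none passes after it.

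A wider set of 121 genes in 6 lists held other tau kinases, kinase regulators, PP2A subunits and regulators, and other phosphatases with their regulators. Of these, 118 were tested. EdgeR called none of the 118 in any comparison. At an unadjusted p under 0.05 there were 16 in tau against control (12 higher and 4 lower; 9.95% of all genes reached this), 7 in treated tau against tau (3 higher and 4 lower; 12% of all genes) and 19 in treated tau against control (16 higher and 3 lower; 16.3% of all genes). Of the 118, 73 lay higher in tau than in control (median log2 0.03), 71 higher in treated tau than in tau (0.03), and 82 higher in treated tau than in control (0.07). Over all 20694 genes the numbers higher were 10224, 10087 and 10102 in turn. These direction counts carry no test.

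By role, 15 further proline-directed kinases, such as the MAP kinases and DYRKs, divided into 9 higher and 6 lower in tau against control, with 7 whose libraries did not overlap, a share near the 41.6% of all genes. Dyrk3, a DYRK of stress granule control, had the smallest p, with 12.1 and 10.9 CPM in control, 15.8 and 18.7 in the tau pair, then 14.7 and 11.9 in the treated pair (1.49 times control in tau; edgeR adjusted p 0.441, and 0.408 for treated tau against tau at 0.782 times). The log2 value of the latter, -0.35, was -0.23 without tau 2 and -0.22 without treated tau 2. Dyrk2 had the smallest p of that list in treated tau against control (1.20 times; edgeR adjusted p 0.213). Of 33 kinases of other serine and threonine sites, 24 lay higher in treated tau than in tau and 27 higher than in control, against 19 higher in tau than in control. Ttbk1, a tau tubulin kinase of neurons, was lower in the library labelled control 1 and the tau pair than in control 2 and the treated pair. The excitatory cortical neuron markers also split this way, and their part was not tested. Ttbk1 had 109 and 132 CPM in control, 101 and 107 in the tau pair, then 127 and 132 in the treated pair (1.25 times tau; log2 0.32; edgeR adjusted p 0.18). That log2 value was 0.60 with the sex term, and it passed in 1 of 16 alternatives, without the library labelled control 1 and tau 2 together (edgeR adjusted p 0.0403, in a range of 0.0403 to 0.593). Nuak1, a kinase related to the MARKs, had 92.4 and 102 CPM in control, 108 and 128 in the tau pair, then 119.8 and 139.6 in the treated pair (1.33 times control; edgeR adjusted p 0.0756, and 0.0144 with DESeq2, in a range of 0.0144 to 0.428). Prkacb, a catalytic subunit of protein kinase A, stood at 1.15 times control in tau (edgeR adjusted p 0.441).

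Of 8 tyrosine kinases related to FYN in tau phosphorylation, 3 lay higher in tau than in control and 4 higher in treated tau than in tau. None had an unadjusted p under 0.05. Abl2, Src and Lck had the smallest p of the list in the 3 comparisons in turn (0.934 times control, 1.14 times tau and 0.612 times control; edgeR adjusted p 0.72, 0.55 and 0.403). With 1 library left out, the log2 value of Abl2 (-0.10) ran from -0.18 without control 2 to -0.01 without the library labelled control 1, and was -0.03 without tau 1 and -0.17 without tau 2. That of Src (0.18) ran from 0.10 without treated tau 1 to 0.27 without tau 1 or treated tau 2, was 0.11 without tau 2, and was 0.33 with the sex term. Lck was low in every library, with 1.3 and 1.06 CPM in control and 0.939 and 0.917 in the tau pair. The treated pair had 0.76 and 0.671 CPM of Lck. The fold interval of Lck for treated tau against control was 0.341 to 1.1, which includes no change. Its log2 value there (-0.71) ran from -0.85 without control 2 to -0.55 without the library labelled control 1. Of 22 genes listed as regulators of CDK5, GSK3, the MARKs and FYN, 14 did not overlap between tau and control, 8 higher and 6 lower. Of all genes 41.6% did not overlap (20.3% higher and 21.3% lower). In treated tau against tau 9 of the 22 did not overlap (41.3% of all genes), and in treated tau against control 8 (46.3% of all genes). Of the 22, 4 had an unadjusted edgeR p under 0.05 in tau against control, which 9.95% of all genes reached. Apart from Cdk5r2, Rcan2, placed in this list though it encodes an inhibitor of the phosphatase calcineurin, led in treated tau against control. It had 156 CPM in each control library, 176 and 211 in the tau pair and 182 and 186 in the treated pair (1.18 times; edgeR adjusted p 0.244).

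Among 24 tested PP2A subunits and regulators, 18 lay higher in tau than in control (median log2 0.04) and 12 higher in treated tau than in tau (0.004). Over all 20694 genes, 10224 and 10087 lay higher in these comparisons. Anp32a, an inhibitor of PP2A, had 155 CPM in the library labelled control 1, 138 in the other control, 179.7 and 166 in the tau pair, then 135 and 137 in the treated pair. Its tau libraries were the highest of the 6. Treated tau stood at 0.787 times tau (95% interval 0.689 to 0.90; edgeR adjusted p 0.0669), a value that passed in 5 of 16 alternatives, among them DESeq2 (0.0277), in a range of 0.0139 to 0.426. Ppme1, the PP2A methylesterase, had 222 and 231 CPM in control, 242 and 235 in the tau pair, then 267 and 264 in the treated pair (1.17 times control in treated tau; edgeR adjusted p 0.129). Of 16 genes of other phosphatases and their regulators, 14 lay higher in tau than in control (median log2 0.08), where 10224 of all 20694 genes did. An unadjusted edgeR p under 0.05 was reached by 4 of them, all higher, and none was called. Of all genes 9.95% reached it (4.31% higher and 5.64% lower). Among the 4 was Ppp1r1b (unadjusted edgeR p 0.0174), a regulator and striatal marker with 29.0 and 24.8 CPM in control and 33.4 and 55.0 in the tau pair. Ppp6c, a catalytic subunit related to that of PP2A, stood at 71.6 and 67.3 CPM in control, 87.4 and 84.0 in the tau pair, then 81.5 and 86.7 in the treated pair (1.24 times control in tau and 1.21 times in treated tau; edgeR adjusted p 0.441 and 0.131). Ppp1r1b, which encodes the striatal phosphatase regulator DARPP-32, led in treated tau against tau (0.656 times; log2 -0.61; edgeR adjusted p 0.323). That log2 value was -0.22 without tau 2 (edgeR adjusted p 0.848), -0.35 without treated tau 2, -0.94 without tau 1 and -0.95 without treated tau 1, and the adjusted p ran from 0.0913 to 0.848 over the alternatives. It is itself one of the striatal markers, which were highest in tau 2, where it had 55.0 CPM against 22.6 to 34.3 CPM elsewhere; the part of the striatal markers was not tested.

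**Figure D4:**
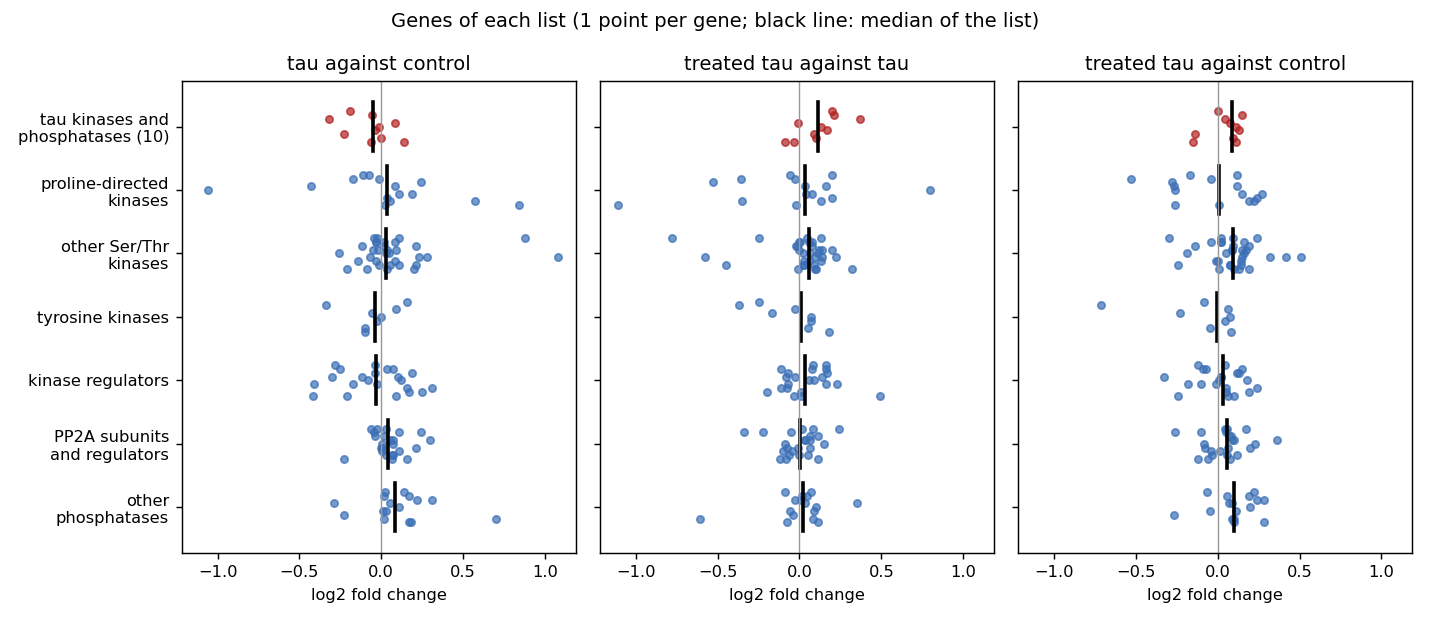
Log2 fold change of every tested gene of each list (1 point per gene, black line at the median) in the 3 comparisons. The medians of the 10 tau kinases and phosphatases are -0.05, 0.11 and 0.09, and those of the wider lists lie between -0.04 and 0.10.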

How the data were processed

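The authors deposited 1 table of raw read counts per gene symbol for each of 6 libraries. Libraries were stranded and ribosomal RNA was removed, then reads were trimmed (Cutadapt) and aligned (TopHat2, against RefSeq mRNAs), per the labels' protocols. SAMtools, featureCounts, edgeR and the build mm10 come from the submitters' processing notes. Not given in the sources used here are versions, the strand setting and how multiply aligned reads were handled.

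Counts of the 53640 shared symbols (0.333% to 0.352% of a library's counts lay outside them) passed through filterByExpr at a minimum count of 10 and TMM scaling; the model was fitted over all 6 libraries without covariates by the quasi-likelihood test of edgeR 4.0.16 in R 4.3.3 (two-sided, legacy option off, 3 residual degrees of freedom). Adjusted p is the Benjamini-Hochberg value over 20694 genes; the threshold was 0.05. Fold intervals are 95% intervals from the model. CPM are TMM-scaled. Positions, exon lengths, overlaps and shared 50-base stretches came from GENCODE M21 (mm10) and promoters from RefSeq. Counts carry no molecular identifiers, so Poisson intervals cover counting error only. Alternatives used DESeq2 1.42.0, limma-voom (limma 3.58.1), other scaling, filters, gene sets, a replicate block, a sex term and left-out libraries. Replicate numbers did not pair the libraries: deviations of same-numbered libraries correlated at 0.01, -0.008 and 0.073.

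The members, lists and tests were chosen with earlier results of these data known. Named genes are the 10 members, plus, for each list and comparison, up to 3 called genes or else the one with the smallest p. The genes most alike were taken for the member with the widest range of group means.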

Additional observations from a re-analysis of the deposited data

How the results depend on the processing

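No member was called in any of 16 alternatives per comparison. The smallest adjusted p of any member ran from 0.227 to 0.685 for tau against control, from 0.094 to 0.529 for treated tau against tau and from 0.102 to 0.705 for treated tau against control. Of 480 recomputed member values 30 changed sign, and of 287 values of list genes 0 changed sign and 15 came past the threshold. The cause of these changes was not tested, beyond the fewer samples or genes that some alternatives hold by construction.

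For tau against control, where edgeR called 0 genes, DESeq2 called 51, and leaving out 1 library gave 0 to 98 (98 without control 2, 9 without tau 2). Without the library labelled control 1 and tau 2 together, an alternative chosen after seeing the data, the count was 130, with Dyrk1a at 0.046. Mark1 changed sign with relative log expression size factors (0.00067), DESeq2 (0.00437) and the replicate block (0.00301), and Dyrk1a with the sex term (0.0229). With 1 library left out, Mark1 ran from -0.15 to 0.16, Gsk3b from -0.18 to 0.0784, Cdk5r1 from -0.14 to 0.0757 and Dyrk1a from -0.0531 to 0.0258.

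For treated tau against tau, 779 genes were called over all genes (639 higher, 140 lower), 166 with the sex term (102 higher, 64 lower), 45 when protein-coding genes were fitted alone (23 higher, 22 lower) and 355 to 840 with 1 library left out: 355 without tau 1, 504 without tau 2, 429 without treated tau 1 and 423 without treated tau 2. Fyn turned to -0.14 with the sex term. Cdk5 turned to 0.00812 with no filter on low counts and to 0.00191 with protein-coding genes alone; with 1 library left out it ran from -0.0437 to 0.0368, and Ppp2ca from -0.0748 to 0.0177. Mark4 ran from 0.29 to 0.56 over all 16 alternatives.

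For treated tau against control, 873 genes were called, 40 with protein-coding genes alone (24 higher, 16 lower) and 494 to 816 with 1 library left out (494 without treated tau 2, 507 without treated tau 1). Mark2 turned to -0.0249 with a minimum count of 50, -0.0117 with protein-coding genes alone and -0.0025 with only the 4 libraries compared. With 1 library left out, Mark1 ran from -0.0478 to 0.26, Mark2 from -0.0348 to 0.0515 and Mark4 from -0.0447 to 0.15. Without the library labelled control 1 and tau 2 together they stood at -0.0484, -0.0354 and -0.0458.

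The replicate block, on numbers that the titles share but that do not pair the libraries, gave 0, 709 and 796 calls in the 3 comparisons and brought Cdk5r2 past the threshold in treated tau against tau (adjusted p 0.0434) and Nuak1 in treated tau against control (0.0228). Depth was not uniform, with tau 2 the shallowest, and 2 libraries per group limit every value.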
